A study of Saccharomyces cerevisiae with 64 samples.

Results

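Replication of budding yeast (Saccharomyces cerevisiae) was examined in cells overexpressing Fkh1, against cells without overexpression, both released from G1 into hydroxyurea (HU). The data are 12 of the 64 libraries of the study: 3 immunoprecipitated (IP) and 3 Input libraries of Fkh1 OE, a wild-type strain with FKH1 on a plasmid behind the galactose-inducible GAL promoter, and 3 IP and 3 Input libraries of no OE, wild type with that promoter alone. The members are the 241434 bins of 50 bp of the 16 nuclear chromosomes in the authors' HU table, of 243150 bins in all. Cells were selected for plasmids on medium without uracil where needed and grown in raffinose. They were arrested in G1 by 7.5 nM α-factor (3 h, 25 °C), kept in it for a further 2 h with 2% galactose, and released with Pronase E for 60 min in 0.2 M HU and 400 µg/mL bromodeoxyuridine (BrdU). The clones used and the number of plasmid copies per cell are not given in the labels.

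BrdU replaces thymidine in DNA made after release, and an antibody to BrdU recovers that DNA, so the signal along a chromosome marks where replication started and how far it went. HU inhibits ribonucleotide reductase and depletes nucleotides. Forks then slow down close to the origins that fired first, and the S-phase checkpoint holds back origins that would fire later. Fkh1 is a forkhead transcription factor. With its paralogue Fkh2 it controls the CLB2 cluster of mitotic genes, and it also binds near many replication origins, where it is known to promote early firing in yeast. The comparison asked which stretches of the genome incorporated more or less BrdU under HU when Fkh1 was in excess.

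Overexpression was checked in the RNA of G1-arrested cultures of the same strains, which are separate libraries. FKH1 RNA had 1458 FPKM in Fkh1 OE cultures and 20.9 FPKM in no OE cultures according to the authors' deposited table, a 69.6-fold difference (q = 0.000327, 2 libraries per group). For BrdU, the authors deposited 1 combined column per group, in relative units in which the highest no OE bin is 1. No spread between replicates could therefore be computed, no test was possible, and depth per library is unknown. Below, "rose" and "fell" mean a difference of at least 2-fold between the combined values, without a replicate check. Of the 10 lowest distinct values of each column, 8 were shared between the columns. A constant was searched for among multiples of the shared values, and only one that fits nearly all values was kept. The one kept was 0.00228, and 9 of 10 values in Fkh1 OE and 10 of 10 in no OE were this constant divided by multiples of 0.5. The tolerance was 0.01 on the quotient. Because the search required a good fit, the fit cannot show whether the columns differ in scale. How libraries were scaled is not stated in the labels or headers.

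More BrdU signal was found over most of the genome in Fkh1 OE. The median bin had 0.00615 in Fkh1 OE and 0.00435 in no OE, and the sum over the nuclear chromosomes was 5486 in Fkh1 OE and 3937 in no OE, a ratio of 1.39. Of 5796 windows of 2 kb, 5494 had a ratio above 1 and the median ratio was 1.37. A rise of 2-fold was less common, with 634 windows higher (10.9%) and 17 lower (0.293%). Signal was also less concentrated: the top 1% of bins held 29.7% of the total in Fkh1 OE and 34.9% in no OE. When both columns were divided by their totals, which removes this overall gain, 358 windows were higher and 43 lower.

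Where these windows lie was compared with replication timing in other libraries of the study. These were from no OE cells without drug that received a pulse of BrdU from 20 to 35 min after release. The BrdU dose of the pulse was higher than that in HU, and the group has 2 IP libraries. Windows were ranked by the signal of this pulse and divided into 5 classes of 1152. From the lowest class to the highest, 2.34%, 3.04%, 9.72%, 23.0% and 16.8% of windows were at least 2-fold higher in HU. The rises were thus most frequent in the class next to the top, where the median window had 0.00739 in Fkh1 OE and 0.00473 in no OE. In the top class, it had 0.0180 in Fkh1 OE and 0.0114 in no OE. Windows within 10 kb of a chromosome end stood apart, with 1 of 83 higher and 7 lower, against 476 of 4327 higher (11.0%) and 6 lower beyond 100 kb. Their median ratio was 1.16, against 1.37 beyond 100 kb.

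Replication sites, local summits of the signal, were called in each column alone. The 1 kb running mean had to reach 3 times that column's median, with summits at least 5 kb apart. Whether a summit lies at an origin was not tested, and summits at URA3 and at chromosome ends are among the sites. Fkh1 OE gave 362 summits and no OE 253. After summits within 2.5 kb were joined and 7 in the ribosomal DNA or in poorly covered stretches were left out, 380 sites remained. Of these, 222 were called in both columns, 134 in Fkh1 OE only and 24 in no OE only. Signal over the 2 kb around the summit rose at 195 sites (51.3%) and fell at 5 (1.32%), and the median site was 2.02-fold higher, with a median of 0.0529 in Fkh1 OE and 0.0146 in no OE. The median log2 fold of 1.015 was 0.54 when the columns were divided by their nuclear totals, and 0.52 when divided by their median window. Fewer sites rose and more fell under either division. Because a site needs only 1 column, the Fkh1 OE only sites had to be high in that column, and their fold is a description. Over the 246 sites called in the no OE column alone, a choice that favours falls, 71 rose and the median log2 fold was 0.45.

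**Figure D1:**
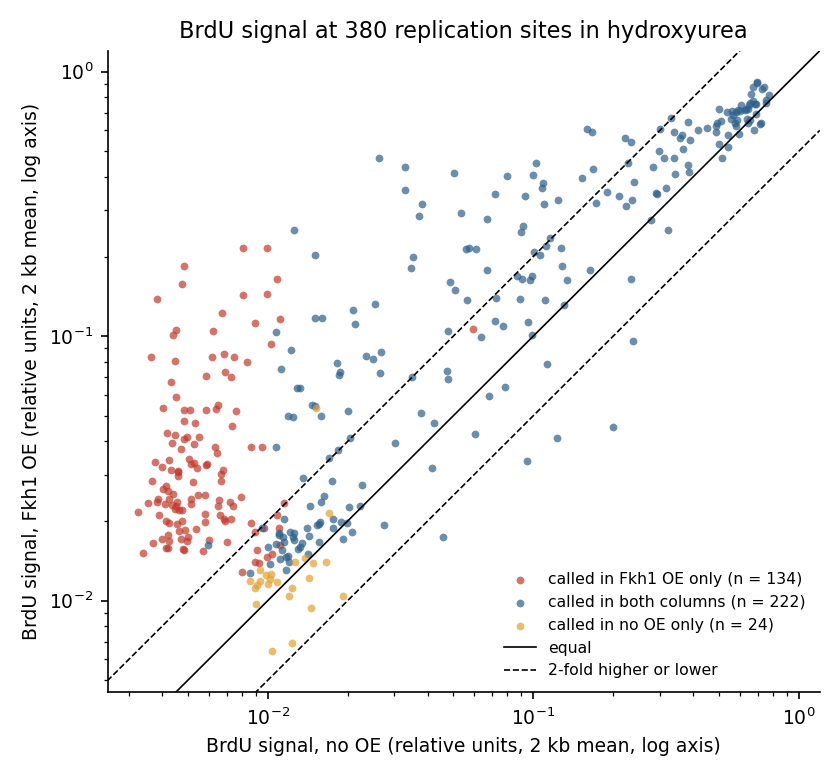
BrdU signal in relative units at each of the 380 sites (mean over 2 kb), Fkh1 OE on the vertical and no OE on the horizontal log axis; each point is 1 site, coloured by the column in which it was called, the solid line marks equal signal and the dashed lines 2-fold. Most sites with high no OE signal lie close to the line of equal signal, and the 134 sites called in Fkh1 OE only lie above it.

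The 134 sites called in Fkh1 OE only had a median of 0.0276 in Fkh1 OE and 0.00525 in no OE, a 5.63-fold median difference. In no OE, this median is near that of all bins of the column, 0.00435. Of these 134 sites, 109 were over 10 kb from the nearest no OE summit, and the median distance of all 134 was 27.1 kb. The share of all bins at such a distance was not computed, and summits within 2.5 kb of each other had been joined. Summits were also more closely spaced, with a median gap between neighbouring summits of 28.3 kb in Fkh1 OE and 32.8 kb in no OE. Gaps longer than 100 kb numbered 4 in Fkh1 OE and 23 in no OE, and the longest was 149 kb in Fkh1 OE and 322 kb in no OE. With 1 common threshold in place of 1 per column, 257 sites were called in Fkh1 OE only, and with summits of at least 10 times the median 65 were.

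The 222 shared sites changed less. Their median signal was 0.183 in Fkh1 OE and 0.0878 in no OE, the median fold was 1.44, and 71 rose while 5 fell. The 24 sites called in no OE only had low medians in both columns, 0.0119 in Fkh1 OE and 0.0114 in no OE. None fell by 2-fold, 9 had a ratio below 1, and 1 rose, by 3.53-fold, with 0.0537 in Fkh1 OE and 0.0152 in no OE. The highest no OE value among the 24 was 0.0192. The 42 sites with no OE signal of 0.5 or more showed a median fold of 1.13, ranged in fold between 0.887 and 1.44, and none rose or fell. For the 58 sites with 0.1 to 0.5 in no OE the median fold was 1.53, with 15 higher and 3 lower. Of the 135 sites below 0.01 in no OE, 120 were higher, at a median of 5.40-fold. These levels come from the same control column as the fold, so a low no OE value by itself favours a high fold.

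Classes that do not use either column were therefore formed from the control of another experiment in HU, that of RNR3 overexpression, by dividing the 380 sites into 3 classes of like size, called early, middle and late by their signal there. Only the early class stood clear of that column's median bin of 0.158, with 0.194 to 0.806. The middle class had 0.164 to 0.193 and the late class 0.116 to 0.164, with 80 of 127 late sites below the median bin, so the line between middle and late orders values near background. The late class, with the lowest signal there, had a median of 0.0242 in Fkh1 OE and 0.00654 in no OE, and 91 of its 127 sites rose and 1 fell, at a median of 4.43-fold. In the middle class, 74 of 126 rose and 1 fell, at 3.01-fold. The early class had 0.453 in Fkh1 OE and 0.293 in no OE, with 30 of 127 sites higher, 3 lower and a median fold of 1.30. That last direction turned when the columns were divided by their nuclear totals, which gave a median log2 fold of -0.10, or by their median window, which gave -0.11. The late class holds 86 of the 134 sites called in Fkh1 OE only, and its median log2 fold of 2.15 was 0.47 over sites called in the no OE column alone.

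In the deposited units, early-class sites held the largest part of the added signal among the classes of sites, but their share of the total was smaller, 59.6% in Fkh1 OE and 66.4% in no OE. Of the 1549 units by which the Fkh1 OE sum exceeded the no OE sum, 42.6% lay within 2.5 kb of the early-class sites called in both columns, where the sums were 3271 in Fkh1 OE and 2612 in no OE. The sites called in Fkh1 OE only took 18.4% of the gain on 5.76% of the bins, with sums of 358 in Fkh1 OE and 73.2 in no OE. Middle-class sites called in both columns took 13.5%. Outside all sites, on 84.1% of the bins, lay 23.5% of the gain, with sums of 1434 in Fkh1 OE and 1069 in no OE.

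The largest rises were peaks that the control lacked. At CHS1, which encodes a chitin synthase (chromosome XIV 278851 to 280850, build R64, inside the gene), signal was 0.184 in Fkh1 OE and 0.00485 in no OE, a 38.0-fold rise. Between RPL12B, a ribosomal protein gene, and RAD30, the gene of DNA polymerase eta (IV 1301601 to 1303600), it was 0.139 in Fkh1 OE and 0.00382 in no OE, a 36.3-fold rise. Between the convergent genes YPT11, a Rab GTPase, and RPS19B, a ribosomal protein (XIV 60601 to 62600), it was 0.158 in Fkh1 OE and 0.00474 in no OE, a 33.3-fold rise. In no OE, all 3 stood close to the median bin. The next were the sites between YOR296W and TIM18, a mitochondrial import gene (XV 873201 to 875200, 0.216 in Fkh1 OE and 0.00810 in no OE, or 26.6-fold), and between MDH3, peroxisomal malate dehydrogenase, and VAM6, a vacuolar tethering factor (IV 315901 to 317900, 0.106 in Fkh1 OE and 0.00452 in no OE, or 23.4-fold). The remaining 5 of the top 10 lay beside SAP4 (VII 63451 to 65450), between TSR2 and ECM30 (XII 1006051 to 1008050), between NNF2 and the transcript SUT126 (VII 659001 to 661000), inside the Elongator acetyltransferase gene ELP3 (XVI 383951 to 385950), and between SOL1 and EGO4 (XIV 690851 to 692850). Their folds ran between 18.1 and 23.0, and ELP3 was the only site of the 10 that had a summit in both columns, with 0.251 in Fkh1 OE and 0.0125 in no OE.

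These sites remained well below the strongest origins. The highest of the 10, ELP3, had 0.251 in Fkh1 OE, against 0.783 at ARS607 in the same column. Ranked by the difference in signal instead, a choice made after the values were seen, the 5 leading sites had between 0.0263 and 0.166 in no OE. At ASE1, a spindle midzone gene of the CLB2 cluster (XV 436001 to 438000), signal was 0.609 in Fkh1 OE and 0.160 in no OE, a 3.81-fold rise. Between MKK2, a kinase of the cell wall pathway, and UME1, a subunit of the Rpd3 histone deacetylase (XVI 288301 to 290300), it was 0.470 in Fkh1 OE and 0.0263 in no OE, a 17.9-fold rise. The next 3 lay between GLC8 and ELP6 (XIII 896801 to 898800, 0.590 in Fkh1 OE and 0.166 in no OE), between KDX1 and ELF1 (XI 152051 to 154050, 0.434 in Fkh1 OE and 0.0329 in no OE), and between MPE1 and TOA2 (XI 328551 to 330550, 0.413 in Fkh1 OE and 0.0502 in no OE). Of these 5 sites, 3 belonged to the early class and 2 to the middle class, and none to the late class. Within the early class the largest rise, also picked after the values were seen, was 10.9-fold, near RRP15 and NOC4 (XVI 818551 to 820550), with 0.358 in Fkh1 OE and 0.0329 in no OE.

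Sites around the 2-fold limit show what the count of 195 rests on. Just past it stood the sites between FPT1 and PRY2 (2.00-fold), between HXT5, a hexose transporter gene, and PAL2 (2.01-fold), inside PAC2 (2.01-fold) and beside LOH1 (2.02-fold). Just short of it stood those beside SHC1 (1.99-fold), inside TMA23 (1.98-fold), between RCL1 and MDM12 (1.96-fold) and between FLO9 and GDH3 (1.95-fold). With a limit of 4-fold, 122 sites were higher.

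The 5 sites with the highest no OE signal were nearly equal in both columns. ARS306, inside FRM2 (III 73701 to 75700), had 0.819 in Fkh1 OE and 0.775 in no OE, a ratio of 1.06. The site inside DAL2, the allantoicase gene (IX 410701 to 412700), had 0.759 in Fkh1 OE and 0.756 in no OE. ARS607 (VI 198101 to 200100) had 0.783 in Fkh1 OE and 0.752 in no OE. The other two, ARS307 (III 107851 to 109850) and the site between YOL024W and IFM1 (XV 276601 to 278600), each had a ratio of 1.18. All 5 ratios are below the 1.39 of the totals, so each of them took a smaller share of the Fkh1 OE total than of the no OE total.

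A panel of 16 origins of chromosomes III to VI known by name, placed by their approximate positions, was followed in the same way. All 16 had a ratio above 1, with a median of 1.42, 4 rose and 0 fell; the ratios of ARS305, ARS306, ARS307, ARS315, ARS605, ARS606 and ARS607 lie below the 1.39 of the totals and turn below 1 when the columns are divided by these. The 4 were ARS310, ARS501, ARS603 and ARS608. ARS310 (III 165601 to 167600) had 0.453 in Fkh1 OE and 0.102 in no OE, a 4.43-fold rise. It is the only one of the 4 that was an early site of the control, and its neighbours ARS309 and ARS315 had ratios of 1.39 and 1.30. ARS608, inside MET10 (VI 215351 to 217350), had 0.0520 in Fkh1 OE and 0.00761 in no OE, a 6.84-fold rise. ARS501 (V 548601 to 550600) and ARS603 (VI 67201 to 69200), which normally fire late, reached 0.0160 and 0.0170 in Fkh1 OE, against 0.00432 and 0.00600 in no OE, 3.71-fold and 2.83-fold higher. Against the median bin of the column, ARS501 stood at 2.61 times in Fkh1 OE and 0.994 times in no OE. These 2 late origins thus stayed far below the early ones, of which ARS305 (III 38551 to 40550) had 0.915 in Fkh1 OE and 0.698 in no OE. ARS501 remained under the limit of 3 times the median and gave no site in either column, and neither did the late origins ARS602 (VI 31901 to 33900) and ARS609 (VI 255401 to 257400), with ratios of 1.77 and 1.66.

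**Figure D2:**
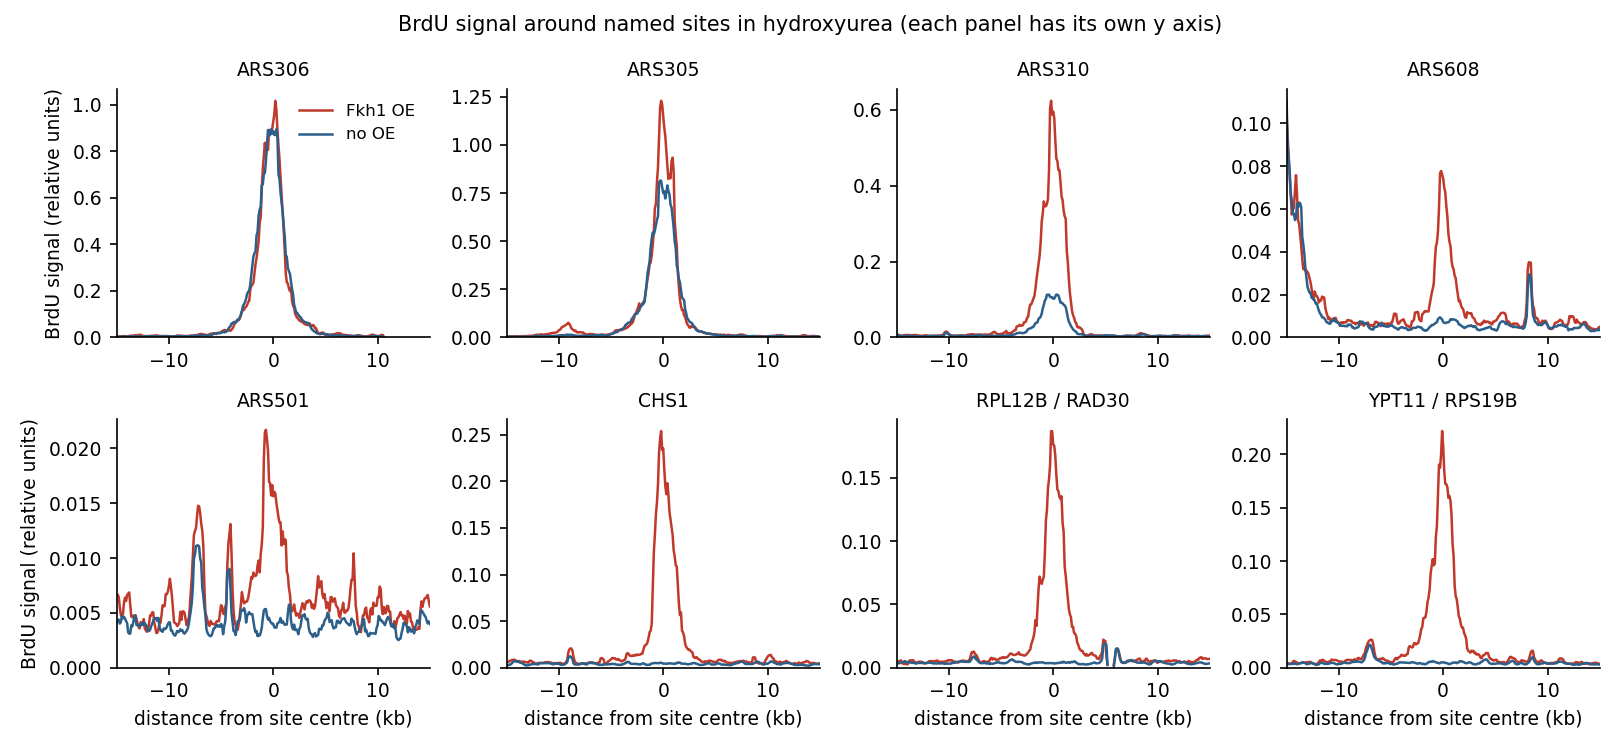
BrdU signal in relative units against distance from the site centre in kb at 8 named sites, Fkh1 OE in red and no OE in blue, with a separate linear axis in each panel. The peaks at CHS1, RPL12B / RAD30 and YPT11 / RPS19B stand in Fkh1 OE over a nearly flat no OE line, ARS310 is 4.43-fold higher in Fkh1 OE, and ARS306 nearly overlaps.

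Peaks also differed in shape. For 216 of the 222 shared sites, the width at 50% of the height over the column's median could be measured in both columns. The median width was 1850 bp in Fkh1 OE and 2200 bp in no OE; 170 peaks were narrower in Fkh1 OE, 29 wider and 17 equal. Among 99 strong peaks, with no OE signal above 0.1, it was 2000 bp in Fkh1 OE and 2350 bp in no OE, and 87 of 99 were narrower. The middle class had 1475 bp in Fkh1 OE and 1850 bp in no OE, while in the late class the median was 1250 bp in Fkh1 OE and 1200 bp in no OE, over 26 peaks, of which 15 were narrower in Fkh1 OE, 7 wider and 4 equal. ARS305, for example, measured 1950 bp in Fkh1 OE and 2550 bp in no OE. ARS309, at 2050 bp, was equal in both columns.

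At the narrower peaks, the ratio of Fkh1 OE to no OE was higher at the centre than at the sides. Averaged over the 100 strong sites, signal at the summit was 0.615 in Fkh1 OE and 0.464 in no OE, a ratio of 1.33. The ratio was 1.15 at 1 kb from the summit, 1.00 at 1.5 kb and 0.970 at 2 kb, where the means were 0.101 in Fkh1 OE and 0.104 in no OE. Beyond the peak it was higher again, 1.18 at 4 kb and 1.26 at 5 kb. Site by site, the median ratio was 1.28 over the central 1 kb and 0.978 over the flanks from 1.5 to 3 kb, and the flank ratio lay below the centre ratio at 96 of 100 sites. Among the 67 strong sites without another site within 10 kb, an alternative added after seeing the data, this held for 65, with a ratio of 1.36 at the summit and 0.991 at 2 kb. Since centre and flank are read within a column, scaling a column leaves the order of the 2 ratios as it is, but the centre turns below 1 when the columns are divided by their totals, to 0.952 at the summit and 0.916 over the central 1 kb, with 0.702 over the flanks. How much the libraries of a group differ in fragment length or smoothing was not tested.

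**Figure D3:**
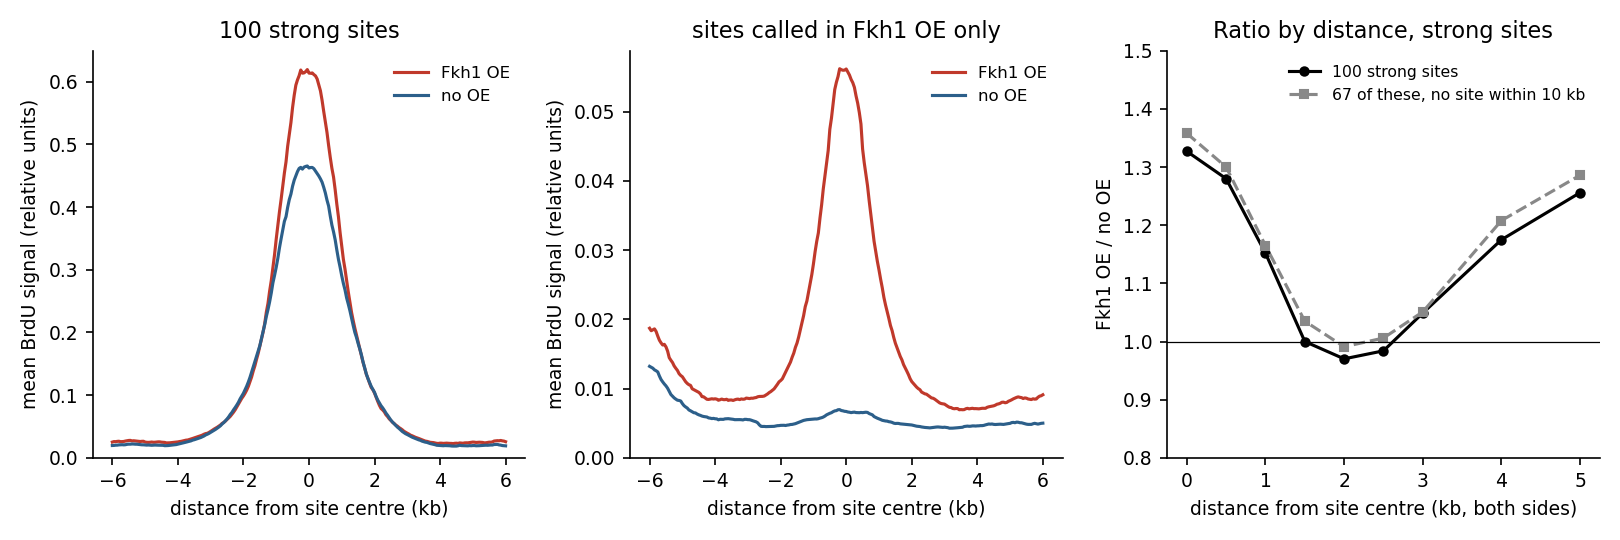
Mean BrdU signal in relative units by distance from the site centre in kb, Fkh1 OE in red and no OE in blue, for the 100 strong sites (left) and the 134 sites called in Fkh1 OE only (middle), and the ratio of Fkh1 OE to no OE by distance for the strong sites (right). The ratio for the 100 sites is 1.33 at the summit, 0.970 at 2 kb and 1.26 at 5 kb.

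The mean profile of the sites called in Fkh1 OE only had another course, with 0.0558 in Fkh1 OE and 0.00668 in no OE at the summit, 0.0276 in Fkh1 OE and 0.00560 in no OE at 1 kb, and 0.0112 in Fkh1 OE and 0.00470 in no OE at 2 kb. Its ratio was thus 8.35 at the summit and 2.38 at 2 kb. The summit was the point where these sites were called.

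The 5 sites that fell were 4 chromosome ends and URA3, which encodes orotidine phosphate decarboxylase. At the left end of chromosome V, before YEL077C, signal was 0.0452 in Fkh1 OE and 0.199 in no OE, or 4.40-fold lower. The left ends of chromosomes VIII, XII and II were 2.81-fold, 2.63-fold and 2.49-fold lower, with 0.0338, 0.0174 and 0.0958 in Fkh1 OE, against 0.0948, 0.0456 and 0.238 in no OE. Subtelomeric repeats are near-identical between ends, so reads there cannot be assigned to 1 end. In the site at URA3 (V 115501 to 117500), signal was 0.0413 in Fkh1 OE and 0.123 in no OE, or 2.97-fold lower.

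Loci that a plasmid selected without uracil and carrying the GAL promoter could share with the genome were examined next. Over the URA3 gene alone (V 116167 to 116970), signal was 0.0722 in Fkh1 OE and 0.232 in no OE, while the 1 to 5 kb on its left had 0.00536 in Fkh1 OE and 0.00397 in no OE. The difference was thus confined, among these stretches, to the gene. The promoter between GAL1 and GAL10 (II 278353 to 279020), the galactose-induced promoter of those enzymes, had 0.00958 in Fkh1 OE and 0.0269 in no OE, or 2.80-fold lower, while the bodies of GAL1 and GAL10 were at 1.25 and 1.18 times no OE. FKH1 itself (IX 100781 to 102235) had 0.0118 in Fkh1 OE and 0.00547 in no OE. Chromosomal and plasmid copies cannot be told apart at these loci, and the part of plasmid DNA in these values was not tested.

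Chromosomes gained unequally. The summed signal of chromosome XI was 1.94 times and that of XVI 1.93 times no OE, while the other 14 chromosomes ranged between 1.16 (VI) and 1.49 (VIII). Chromosome XVI had a mean bin of 0.0208 in Fkh1 OE and 0.0108 in no OE, the lowest no OE mean of all. Its sites rose most often, at 20 of 28, followed by XI with 16 of 26. Chromosomes VI and III were at the other end, with 3 of 13 and 3 of 12 sites higher. On these, the site medians were 0.0204 in Fkh1 OE and 0.0141 in no OE (VI) and 0.295 in Fkh1 OE and 0.0956 in no OE (III). Site by site, the median fold was 1.293 on VI and 1.505 on III. The ratio of median bins varied much less, between 1.36 and 1.45. In the pulse of 20 to 35 min, made of separate libraries of both groups, XI and XVI again had the highest ratios, 2.85 and 2.85, and VI and III the lowest, 1.74 and 1.75.

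**Figure D4:**
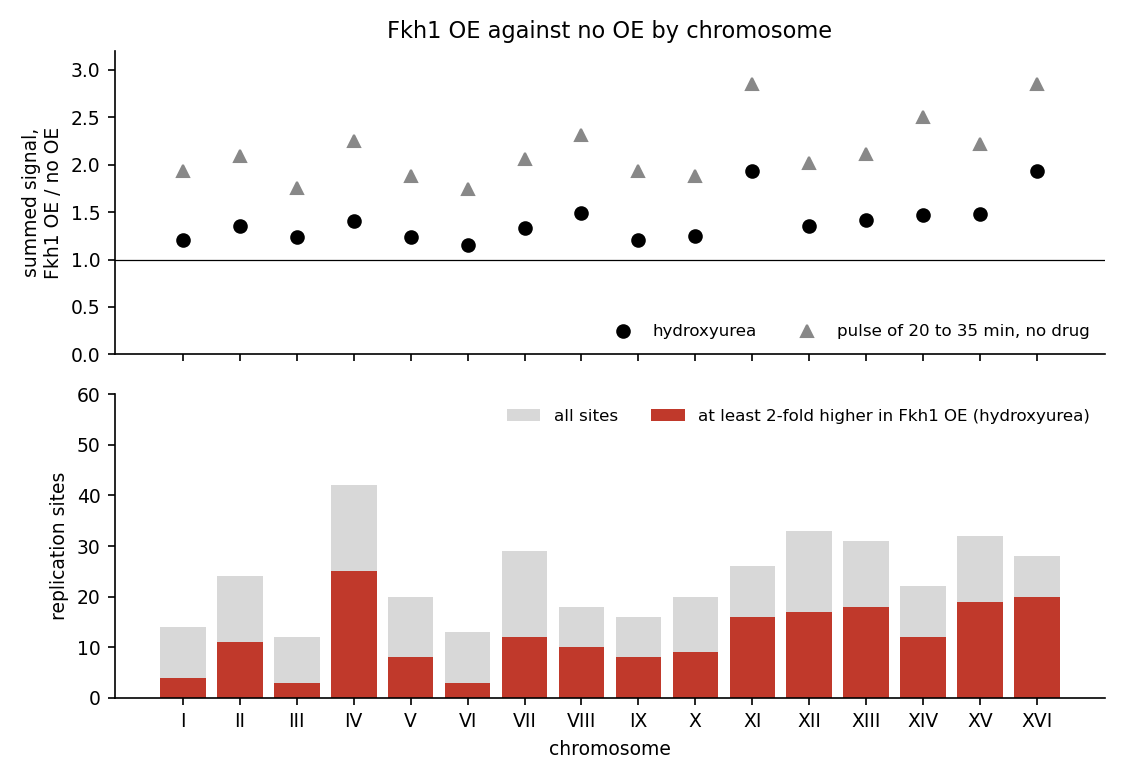
Upper panel: ratio of summed BrdU signal, Fkh1 OE to no OE, for each nuclear chromosome in HU (circles) and in the pulse of 20 to 35 min without drug (triangles). Lower panel: number of sites per chromosome in grey and, in red, those at least 2-fold higher in Fkh1 OE in HU. Chromosomes XI and XVI have the highest ratios in both sets of libraries.

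Position relative to genes was read from the R64 gene table. Of the 380 sites, 36.1% had their centre inside a gene, against 73.5% of all nuclear bins, and among the 195 sites that rose the share was 32.3%. Among the 24 sites called in no OE only it was 70.8%, near that of all bins. The 53 sites between convergent genes had 33 higher and a median of 4.26-fold, with 0.0589 in Fkh1 OE and 0.00994 in no OE. The 63 between divergent genes had 38 higher (2.76-fold), the 117 between tandem genes 61 higher (2.02-fold) and the 137 inside genes 63 higher (1.63-fold). Each class is to be read against the 51.3% of all sites. The convergent class also had the lowest no OE median, 0.00994, beside 0.0668 for the tandem class, and 30 of its 53 sites were called in Fkh1 OE only. Of 10 sites beyond the last gene of a chromosome, 0 rose and 3 fell.

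Gene groups were described by the 2 kb around gene starts, of which 734 of 6292 were higher in Fkh1 OE (11.7%), at a median of 1.38-fold. Of the 20 genes of the CLB2 cluster, which Fkh1 and Fkh2 regulate, 3 were higher and 0 lower, at a median of 1.34-fold. The 3 were ASE1 (0.520 in Fkh1 OE and 0.134 in no OE), the cyclin gene CLB1 (0.00985 in Fkh1 OE and 0.00450 in no OE) and SWI5, a transcription factor gene (0.00683 in Fkh1 OE and 0.00324 in no OE), and only ASE1 is at a strong site. In no OE, CLB1 stood near the median bin of 0.00435 and SWI5 below it. In Fkh1 OE, SWI5 stood near the median bin of 0.00615. CLB2 itself had 0.00962 in Fkh1 OE and 0.00645 in no OE. The 11 histone genes had none higher or lower at a median of 1.15-fold, among them HTB1 with 0.642 in Fkh1 OE and 0.560 in no OE, and HTA2 with 0.150 in Fkh1 OE and 0.181 in no OE. Among 10 galactose genes, GAL2, the galactose permease gene, was higher, with 0.0577 in Fkh1 OE and 0.0121 in no OE, and the list's median was 1.35-fold. None was 2-fold lower, but GAL1 and GAL10 had ratios of 0.559 and 0.580. The promoter between them was described above with the plasmid loci. The tRNA genes had 54 of 272 higher (19.9%) and 0 lower, at a median of 1.42-fold. The medians of the other 3 lists and of all gene starts lie below the 1.39 of the totals, so they turn below 1 when the columns are divided by these.

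RNA of genes at the sites that rose was looked up in the authors' deposited table of G1-arrested cells. In the authors' deposited table, 681 of 6930 entries other than FKH1 differed between Fkh1 OE and no OE at q below 0.05 (9.83%). Of 381 listed genes that contain or flank a site that rose, 48 did (12.6%), with 25 higher and 23 lower in Fkh1 OE in that table. Of 370 genes at the other sites, 35 did (9.46%), with 18 higher and 17 lower in Fkh1 OE in that table. Each share stands beside the 9.83% of all entries.

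The sites were then followed into the unperturbed S phase, in the pulse of 20 to 35 min. Besides drug and labelling time, the pulse differed from the HU experiment in its higher BrdU dose, whose effect was not tested. Both groups of the pulse have 2 IP libraries. In the pulse, 60.4% of all 2 kb windows were at least 2-fold higher in Fkh1 OE. The median bin of the pulse had 0.0246 in Fkh1 OE and 0.00882 in no OE, a ratio of 2.79. A 2-fold rise in the pulse is thus less than that of the median bin. Of the 195 sites that rose in HU, 190 (97.4%) rose there too and 0 fell, at a median of 4.96-fold, with 0.130 in Fkh1 OE and 0.0220 in no OE. Of the 184 other sites with a value, 38 rose (20.7%) and 0 fell, at a median of 1.53-fold, with 0.238 in Fkh1 OE and 0.146 in no OE. This fold is below the 2.79 of the median bin. Over 379 sites, Pearson's r between the log2 folds of both experiments was 0.831, and Spearman's rho 0.856. This is a description across sites, which share libraries and were called in the HU columns. When the columns of both experiments were divided by their median window, 44.6% of the sites then higher in HU were also higher in the pulse by 2-fold. Division by the nuclear totals gave 66.3%. The share of all windows was not computed under these divisions. CHS1, first in HU, had 0.267 in Fkh1 OE and 0.0235 in no OE in the pulse, 11.4-fold higher. ARS310 had 0.463 in Fkh1 OE and 0.177 in no OE, or 2.62-fold, which is below the 2.79 of the median bin. URA3 was below 1 in the pulse as well, at 0.589 times over the 2 kb site, with 0.0458 in Fkh1 OE and 0.0778 in no OE.

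**Figure D5:**
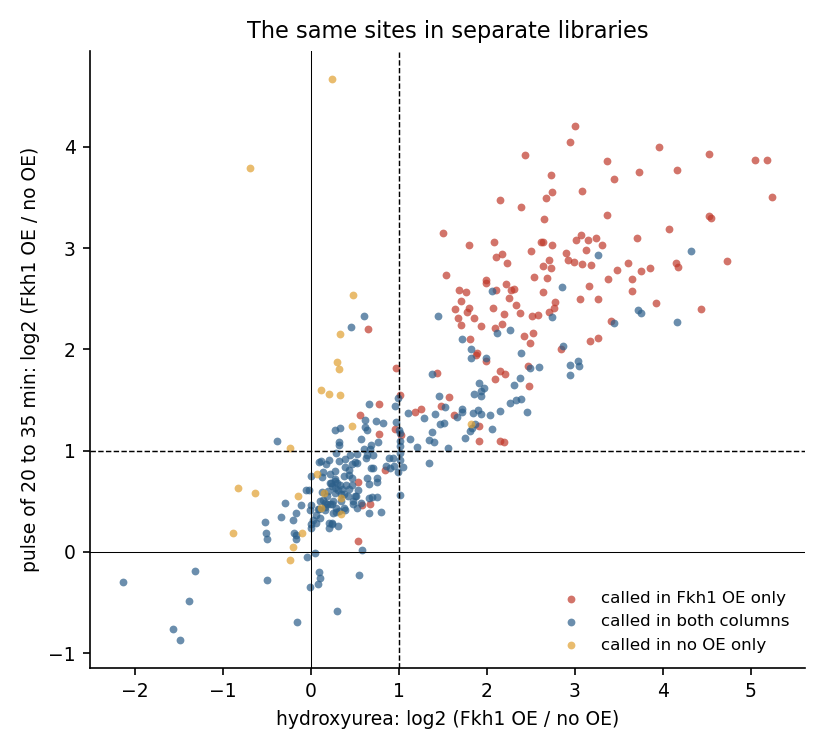
Log2 ratio of Fkh1 OE to no OE at each site in the pulse of 20 to 35 min without drug (vertical) against that in HU (horizontal), coloured by the column in which the site was called; dashed lines mark 2-fold higher. Of the sites right of the vertical dashed line, 97.4% lie above the horizontal one. The median bin of the pulse had a ratio of 2.79.

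In cells deleted for both FKH1 and FKH2, and with ARS305 in place of ARS501, signal at these sites was mostly lower with Fkh1 OE. Both groups of this strain have 2 IP libraries. Chromosomes III and V, which differ in length in that table, were left out. Of all 2 kb windows there, 3.32% were at least 2-fold higher and 25.7% lower with Fkh1 OE than with the promoter alone, and the median bin had 0.00604 with Fkh1 OE and 0.00822 without. Of 184 of the sites that rose in the wild type, 29 were higher and 102 lower with Fkh1 OE, at a median of 0.392 times, with 0.0224 in the double mutant with Fkh1 OE and 0.0607 in the double mutant alone. Of 162 other sites, 44 were higher and 24 lower, at a median of 0.865 times. CHS1 had 0.0408 in the double mutant with Fkh1 OE and 0.140 in the double mutant alone, or 0.292 times. The site between MKK2 and UME1 was higher, with 0.152 in the double mutant with Fkh1 OE and 0.0752 in the double mutant alone, 2.02-fold higher. The site inside DAL2 also rose, with 0.555 in the double mutant with Fkh1 OE and 0.0472 in the double mutant alone, 11.8-fold higher. Each table was scaled on its own, so levels are set side by side only within it.

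RNR3, a large subunit of ribonucleotide reductase, the target of HU, was overexpressed in a further experiment in HU, with 2 IP libraries per group. There, 7.18% of windows were at least 2-fold higher in RNR3 OE than in its control. Of the 195 sites that rose with Fkh1, 1 was higher and 0 lower in RNR3 OE, at a median of 1.12-fold, with 0.177 in RNR3 OE and 0.164 in its control. Of the other 185 sites, 12 were higher and 0 lower, at a median of 1.35-fold, with 0.389 in RNR3 OE and 0.201 in its control. The median bin of that table was high, 0.151 in RNR3 OE and 0.158 in its control, close to the levels of the weak sites. CHS1 had 0.195 in RNR3 OE and 0.152 in its control.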

How the data were processed

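The 12 libraries are genomic DNA sheared to about 300 bp, ligated to barcoded adapters and pooled; 1 µg of the pool was immunoprecipitated and 20 ng kept as Input, per the labels' protocols. Bowtie2, SAMtools, bedtools and build R64 are named in the submitters' processing notes. The deposited BrdU values are signal per 50 bp bin, 1 column per group combined by the authors; the labels and headers do not state how Input, smoothing and scaling entered, and depth is unknown. The deposited RNA table holds the authors' FPKM and q-values for 2 libraries per group.

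Bins listed at 0 in both columns (9345, 3.87%) were treated as missing, and the ribosomal DNA (chromosome XII 451786 to 489469) was left out of sites and windows. Windows and sites needed 50% of bins. Widths were read after a 250 bp running mean. Origins by name were placed at approximate textbook positions and moved to the summit within 2.5 kb. Named sites are the 10 largest rises, 5 largest falls, 5 highest in no OE, 4 on each side of 2-fold, the 16 origins and the plasmid loci. The design, members and lists were chosen with earlier results of these data known. The site and fold steps were tested on simulated data (Python 3.11.15, numpy 2.4.6, pandas 2.3.3). No column of single samples went unmatched (0).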

Additional observations from a re-analysis of the deposited data

How the results depend on the processing

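Of 86 alternative values, 57 kept their direction and stayed within 1.5 times the reported value, 27 moved and 2 turned. For the median log2 folds, the limit of 1.5 times refers to the fold and not to its log2. The early class turned to a median log2 fold of -0.0998 (nuclear totals) and -0.114 (median window). The late class had 2.741 for signal above the column's median, 0.4734 for sites called in no OE alone, 1.481 for sites called in the pulse of 20 to 35 min, 3.105 and 1.107 for summits of 10 and 2 times the median, and 1.533 in windows of 5 kb. Higher windows numbered 1859 at 1.5-fold and 200 at 4-fold, 355 and 358 after division by the median window and the total, 375 with the no OE median as pseudocount, and 1329 and 302 in windows of 1 and 5 kb. Lower windows numbered 44 and 43 under both divisions, 7 with the pseudocount, and 54 and 4 in windows of 1 and 5 kb. Higher sites numbered 122 at 4-fold, 71 for sites called in no OE alone and 97 for summits of 10 times the median. Lower sites numbered 11 and 9 after division by the median window and the total. Sites called in Fkh1 OE only numbered 257 with 1 threshold for both columns and 65 for summits of 10 times the median. The share also higher in the pulse was 44.6% after division by the median window. For the difference in width between the columns, the reported value of -350 bp was -150 bp for summits of 2 times the median. Stricter limits, other sets of sites and divisions change these values by their construction; the cause of the shift in width was not tested. No paired analysis was possible because each column combines the libraries of a group. For the same reason, leaving out a library was not possible, and depth limits cannot be given.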

Other observations

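In the ribosomal DNA, where 59 bins had a value, the summed signal was 2.18 in Fkh1 OE and 4.19 in no OE, a ratio of 0.522; the array is repeated, so its reads cannot be placed. Inside FKH2 (chromosome XIV 495701 to 498289), the paralogue of FKH1, signal was 0.00962 in Fkh1 OE and 0.00418 in no OE, 2.30 times. Inside RNR3 (IX 238099 to 240708) it was 0.00693 in Fkh1 OE and 0.00380 in no OE, 1.83 times. To the right of FKH1, the 1 to 5 kb beyond the gene had 0.189 in Fkh1 OE and 0.0367 in no OE, which takes in a site inside TAO3 (IX 105101 to 107100) with 0.292 in Fkh1 OE and 0.0533 in no OE. Bins listed at 0 in 1 column only numbered 723 in Fkh1 OE and 432 in no OE. These are values only, picked after they were seen.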
